A study of Mus musculus with 9 samples.

Results

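Pericytes and smooth muscle cells, the mural cells of blood vessels, were examined in single-cell RNA-seq of EPZFTA-RELA ependymoma and control brain. Members were chosen by their own transcripts. A kept barcode was a member if at least 1 UMI (unique molecular identifier, 1 counted RNA molecule) was found in 3 or more of 8 mural genes (Rgs5, Kcnj8, Abcc9, Pdgfrb, Higd1b, Vtn, Acta2 and Tagln) and in fewer than 4 of 8 endothelial genes (Cldn5, Flt1, Pecam1, Ly6c1, Kdr, Cdh5, Egfl7 and Tek). The rule found 488 members among 64617 kept barcodes, of which 464 came from tumors and 24 from control brains.

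The tumors came from 5 mice of the genotype NestinCreERT2;Fus1 and the control brains from 4 mice of the genotype NestinCreERT2;TdT, all aged 6 to 8 weeks. Both groups carry the tamoxifen-dependent Cre under the Nestin promoter, which is active in neural stem and progenitor cells, and the TdTomato allele is listed for control mice only. Tissue was dissociated, stained with DAPI and an antibody against Ter119, a red cell marker, sorted and profiled with 10x 5′ chemistry. Each sample is 1 library, taken as 1 mouse, and the labels name no batch.

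Pericytes wrap the endothelium of capillaries, share its basement membrane and are recruited by endothelial PDGF-B through their receptor PDGFRβ. In the brain they maintain the blood-brain barrier, and the vascular smooth muscle cells of arterioles add a contractile apparatus of smooth muscle actin and myosin. Both cell types respond to signals of vascular tone through potassium channels and G-protein-coupled receptors, and pericytes can release chemokines that act on leukocytes.

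The 9 libraries held between 14967680 and 178086164 UMIs and between 9001 and 86516 deposited barcodes, with the highest values of both in the controls. Of the kept barcode sequences in the 8 libraries with a complete barcode list, 814 of 57467 (1.42%) also occurred in another library, as did 7 of 484 members, and no pair of libraries shared a sequence among their members. Tumor replicate 3 stood apart by red cell transcripts, with 18815 CPM (UMIs of the named genes per 1000000 UMIs summed over a class of barcodes in a mouse) for 4 erythroid markers in its 3000 sampled barcodes of low UMI number, against 94.1 to 857 in the other 8 libraries. Its members carried 3924 CPM of the same markers, against 7.40 to 488 in members of the others.

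Neuronal RNA was found in every control member. All 24 control members held a UMI in 3 or more of 6 neuron markers (Snap25, Syt1, Rbfox3, Stmn2, Nrgn and Meg3), as did at least 95.9% of the microglia and 96.2% of the endothelial barcodes in each control library. In tumors 62 of 464 members did so. The summed level of the 6 markers was 4891 to 13784 CPM in control members and 685 to 1863 in tumor members, with no overlap between the groups, and 6552 to 6998 in control barcodes of low UMI number. The part of this background in the comparisons between groups was not tested.

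The label was checked with markers that the rule did not use. The summed level of 6 pericyte markers (Notch3, Cspg4, Anpep, Ndufa4l2, Atp13a5 and Cox4i2) was 817 to 4135 CPM in tumor members, against 13.1 to 119 in the endothelial barcodes of the same tumors. In control members it was 238 to 663, below every tumor, and 29.9 to 240.3 in control endothelial barcodes. The smooth muscle markers outside the rule were at 173 to 1160 CPM in 4 tumors and at 10653 in tumor replicate 3. In control members they were at 69.8 to 1779, overlapping the tumors, with the highest value in the 1 member of control replicate 1. A UMI in 3 or more of the 6 pericyte markers was found in 187 of 464 tumor members and in 1 of 24 control members, so in controls the label rests mainly on the genes of the rule. Cnn1, a defining smooth muscle gene, was at 0 in the members of every library but tumor replicate 3. The 8 endothelial markers outside the rule were Ptprb, Slco1a4, Abcb1a, Itm2a, Pltp, Slc2a1, Esam and Emcn. A UMI in 3 or more of them was found in 71 of 464 tumor members and 5 of 24 control members. They summed to 409 to 836 CPM in tumor members and 182 to 3557 in control members. In endothelial barcodes they summed to 4689 to 10994 in tumors and 4329 to 6626 in controls.

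Members lay on both sides of a continuous range of marker counts. In tumors 168 members had exactly 3 of the 8 mural genes and 296 had more, while 577 further kept barcodes had 2. In controls 19 of 24 members had exactly 3, and 194 kept barcodes had 2. At the endothelial limit, 35 tumor and 2 control members had 3 endothelial genes, and 22 tumor and 5 control barcodes with 3 or more mural genes were left out at 4. The median UMI number per member ranged from 1213.5 to 4375.5 in tumors and from 2249 to 3276 in controls. The rule removes no doublets, and Scrublet scores marked 32 tumor members and 2 control members.

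Mural members made up a larger share of the tumor libraries. They were 0.598%, 1.78%, 1.37%, 1.04% and 1.45% of kept barcodes in tumor replicates 1 to 5, and 0.0123%, 0.108%, 0.171% and 0.0559% in control replicates 1 to 4. Every tumor was above every control. The mean was 1.25% ± 0.449 (SD, n = 5) against 0.0868% ± 0.0684 (SD, n = 4), a difference of 1.16 percentage points (p = 0.0159 by an exact permutation test over mice, two-sided, which is the lowest p these 9 mice can give). Counts of members were 17, 106, 92, 104 and 145 in the tumors and 1, 8, 11 and 4 in the controls. The lowest UMI number among the barcodes considered was 1473, 2550, 2135 and 2695 in control replicates 1 to 4. In tumor replicates 1 to 5 it was 837, 997, 500, 2113 and 1149, and the part of this floor in the share was not tested. Among kept barcodes with fewer than 3 neuron markers, 402 of 29320 were members in tumors and 0 of 160 in controls, which allows a share of up to 1.88% there (3 counts, covering counting error only).

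**Figure D1:**
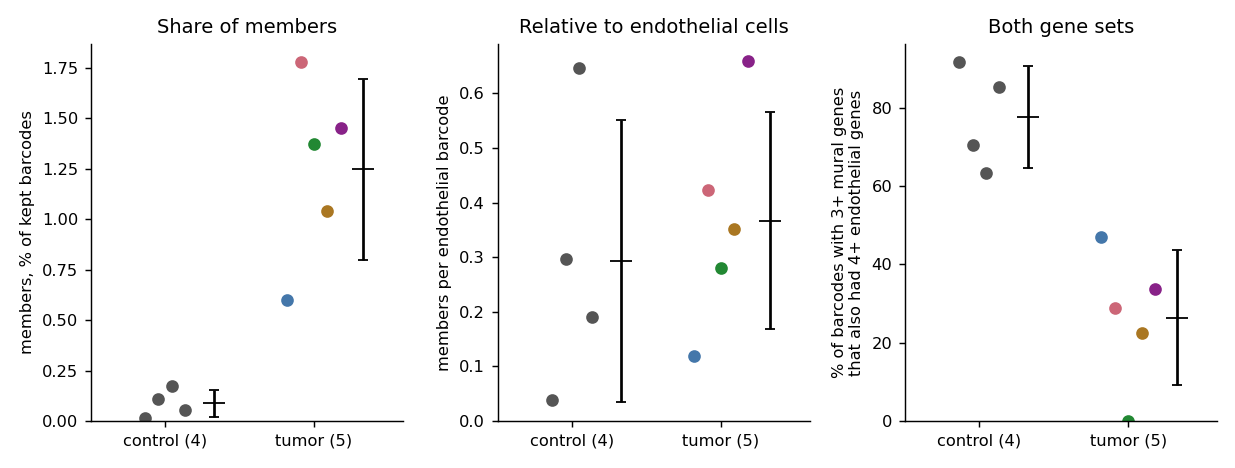
Vessel cell barcodes of 4 control brains and 5 tumors, 1 point per mouse. Mural members run from 0.0123% to 0.171% of kept barcodes in controls and from 0.598% to 1.78% in tumors. Endothelial barcodes also made up a higher share in every tumor than in any control.

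Endothelial barcodes, defined by at least 4 of the 8 endothelial genes and fewer than 3 of the mural genes, moved with the members. They made up 0.310% ± 0.042 (SD, n = 4) of control and 3.87% ± 1.25 (SD, n = 5) of tumor barcodes (p = 0.0159, exact permutation test, two-sided). Set against them, there were 0.118, 0.422, 0.280, 0.351 and 0.659 members per endothelial barcode in the tumors and 0.0385, 0.296, 0.647 and 0.190 in the controls, and the groups overlapped. The difference of the mean log2 ratio was 1.05 over the 5 tumors and the 3 controls with at least 20 endothelial barcodes and did not pass the test (two-sided exact permutation test, p = 0.25). It turned to -1.38 (p = 0.143 by the same exact test) when 2 mural genes were enough for a member, so no direction can be given for the ratio. Control replicate 3, left out with 17 endothelial barcodes, had the highest control ratio, and over all 9 mice the difference was 0.53 (p = 0.524 by the same exact test).

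Barcodes that carried both vessel programmes were more frequent among the mural-positive barcodes of controls. Of kept barcodes with 3 or more mural genes, 11 of 12, 19 of 27, 19 of 30 and 23 of 27 in the controls also had 4 or more endothelial genes, which is 91.7%, 70.4%, 63.3% and 85.2%. In the tumors it was 15 of 32, 43 of 149, 0 of 92, 30 of 134 and 74 of 219, or 46.9%, 28.9%, 0%, 22.4% and 33.8%. The groups did not overlap, and the share was 77.6% ± 13.1 (SD, n = 4) against 26.4% ± 17.3 (SD, n = 5), a description since the rule uses both gene sets. With these barcodes counted, the mural share became 0.148% to 0.467% in controls and 1.12% to 2.50% in tumors, which still did not overlap. Their median UMI number was above that of members in each library that held them, at 2326 to 6941 in controls and 3236 to 10049 in tumors. Members had 2249 to 3276 and 1213.5 to 4375.5. The lowest of these, 1213.5, was in tumor replicate 3, which held 0 such barcodes. The part of depth in the shares with both programmes was not tested.

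The 8 genes of the rule differed in how evenly the tumors carried them. Rgs5, a regulator of G-protein signalling and the common pericyte marker, was at 3128, 2479, 4295, 3560.1 and 1201 CPM in members of tumor replicates 1 to 5. Vtn, which encodes vitronectin, was at 4854, 2288, 10282, 3743 and 1019. Pdgfrb, the PDGF-B receptor, was at 755, 479, 1154, 890.0 and 597. All 3 were lowest or next to lowest in tumor replicate 5, and Vtn spanned the widest range. Members of that tumor stood nearer to the limit of the rule, with 76 of 145 at exactly 3 mural genes, against 2 of 17, 33 of 106, 35 of 92 and 22 of 104 in tumor replicates 1 to 4. A UMI in 3 or more of the 6 pericyte markers was found in 15.2% of them, against 39.6% to 67.3% in the other tumors. They also carried Gm42418 and AY036118, transcripts that overlap the ribosomal RNA repeat, at 97566 and 10028 CPM, against 8522 to 40614 and 587 to 3371 in the other tumors, and these count toward the total behind every CPM value.

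The channel pair formed by Kcnj8, the pore of the vascular KATP channel, and Abcc9, its sulfonylurea receptor subunit, varied less than Rgs5 or Vtn. Kcnj8 was at 405, 501, 774, 633 and 284 CPM and Abcc9 at 324, 593, 663, 607 and 606. Higd1b, a mitochondrial protein gene marking brain pericytes, was at 1618, 1575, 906, 1471 and 425. In the 24 control members Kcnj8 had 2 UMIs, Abcc9 9 and Higd1b 9, so control levels of these genes rest on few molecules.

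Acta2 and Tagln, which encode smooth muscle actin and transgelin, were high in 1 tumor. Acta2 was at 0, 221, 6426, 131 and 29.3 CPM and Tagln at 108, 225, 8342, 40.7 and 20.5 in tumor replicates 1 to 5. The level in tumor replicate 3 was far above all others for both genes. Of the 464 tumor members, 103 held a UMI of either gene, as did 5 of 24 control members.

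**Figure D2:**
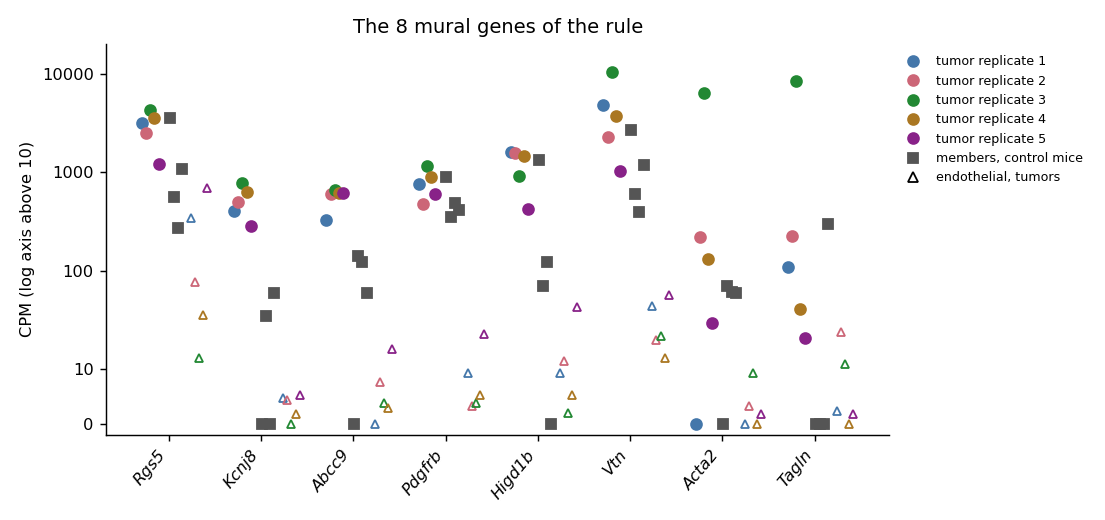
Levels of the 8 mural genes that chose the members, in CPM in summed members (log axis above 10), with 1 point per mouse for 4 controls and 5 tumors. Acta2 and Tagln reach 6426 and 8342 in tumor replicate 3, while Kcnj8 and Abcc9 stay between 284 and 774 in all tumors.

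The rule limits endothelial barcodes to fewer than 3 mural genes and sets no limit on their level. The 8 genes summed to 63.2 to 832 CPM in endothelial barcodes of tumors, highest in tumor replicate 5, and to 1117 to 2146 in those of controls. Rgs5 was at 918 to 1785 CPM in endothelial barcodes of controls and at 13.1 to 687 in those of tumors.

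Outside the rule, the members carried a broad pericyte programme. Of 26 listed pericyte genes, 23 were higher in members than in endothelial barcodes in 5 of 5 tumors and 1, Foxf2, was lower in 5 of 5. Of all 5560 genes with 50 or more UMIs in tumor members, 969 were higher and 547 lower in this way. Since the members were selected on mural and against endothelial transcripts, these contrasts describe the members and were not tested.

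Ndufa4l2, which encodes a mitochondrial complex subunit induced by low oxygen, led the genes outside the rule, with a mean log2 ratio of 4.59 to all other kept barcodes over the 5 tumors. Its level in members was 863, 758, 1237, 1123 and 155 CPM, against 0.933 to 40.4 in endothelial barcodes. Atp13a5, a P5-type ATPase gene of brain pericytes, followed with a mean log2 ratio of 4.13 and levels of 566, 175, 894, 455 and 275. Tumor replicate 5 was lowest for Ndufa4l2 and tumor replicate 2 for Atp13a5.

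Notch3, the Notch receptor of mural cells, was at 216, 91.5, 730.5, 154 and 105 CPM and at most 22.8 in endothelial barcodes. Cspg4, the NG2 proteoglycan gene, was at 269.7, 173, 575, 609 and 226. Cd248, which encodes endosialin, was at 108, 243, 263, 518 and 190.4 and Gja4, the connexin 37 gene, at 351, 233, 359, 198 and 76.1. Each of these 4 genes was present in all tumors, with Notch3 highest in tumor replicate 3 and Cspg4 and Cd248 highest in tumor replicate 4.

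Slc6a20a and P2ry14 differed between the tumors. Slc6a20a, a proline transporter gene, was at 162, 27.8, 499, 5.55 and 17.6 CPM. P2ry14, the receptor gene for UDP-sugars, was at 458, 59.6, 515, 61.1 and 64.4. Both were high in tumor replicates 1 and 3 and low in the other 3, whereas Art3, an ADP-ribosyltransferase gene, was at 324, 272, 311, 581 and 135 with no such division.

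The receptors and effectors of vascular tone were another shared feature. Of 28 listed genes, 15 were higher in members than in endothelial barcodes in 5 of 5 tumors and 1 was lower. Among all 5560 genes counted in this way, 969 were higher and 547 lower. Ednra, the endothelin A receptor gene, was at 53.9, 231, 199.6, 196 and 255 CPM, against 0.933 to 6.95 in endothelial barcodes. Agtr1a, the angiotensin II receptor gene, had 0 UMIs in the members of all 9 libraries.

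Gucy1a1 and Gucy1b1 encode the subunits of soluble guanylate cyclase, the receptor of nitric oxide. Gucy1a1 was at 243, 137, 403, 289 and 93.7 CPM in tumor members and Gucy1b1 at 485, 169, 487, 416 and 73.2, and both were at 26.3 or less in tumor endothelial barcodes. Pde5a, the phosphodiesterase that degrades cyclic GMP, was at 108, 81.5, 307, 187 and 76.1. All 3 genes were lowest in tumor replicate 5.

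Contractile genes set tumor replicate 3 apart. Myh11, smooth muscle myosin heavy chain, was at 27.0, 15.9, 1932, 22.2 and 5.86 CPM in tumor replicates 1 to 5. Cnn1, which encodes calponin, was at 275 in tumor replicate 3 and at 0 in the other 4. Myl9, the regulatory myosin light chain, was at 324, 374, 4427, 513 and 43.9. All 3 were highest in tumor replicate 3, Myh11 and Cnn1 by a wide margin.

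Tpm2, Mylk and Des were also highest in tumor replicate 3. Tpm2, a tropomyosin gene, was at 243, 219, 1956, 239 and 29.3 CPM. Mylk, myosin light chain kinase, was at 243, 203, 1082, 303 and 64.4. Des, the desmin gene, which pericytes also express, was at 297, 151, 611, 74.0 and 26.4. Myocd, the coactivator of smooth muscle transcription, had 6 UMIs in tumor replicate 3 and none in the members of other libraries.

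**Figure D3:**
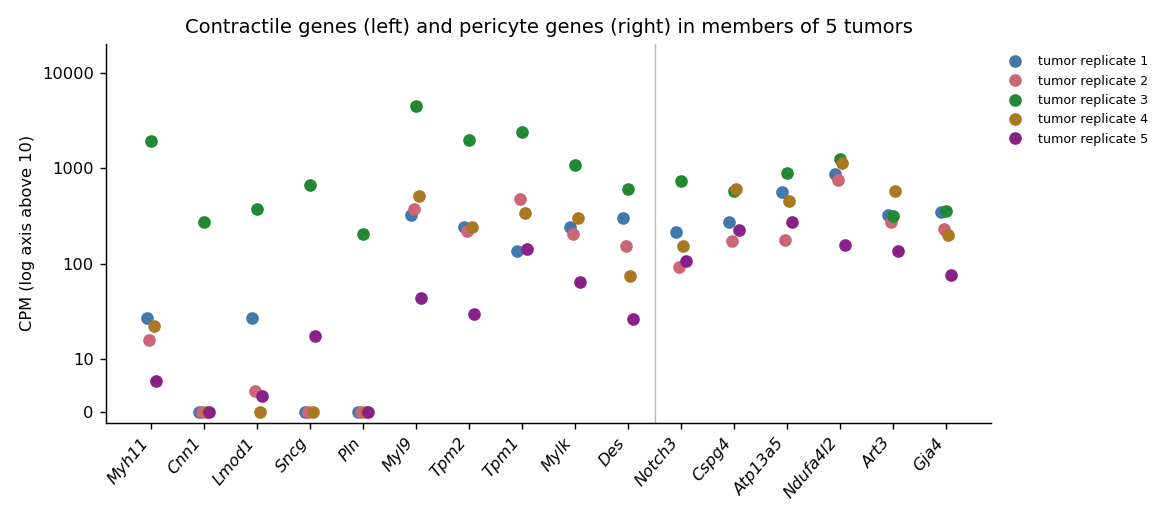
Contractile genes (left) and pericyte genes outside the rule (right) in summed members of 5 tumors, in CPM (log axis above 10), with 1 point per tumor. Tumor replicate 3 is the highest point for each contractile gene (Myh11 at 1932, Myl9 at 4427), whereas Cspg4 and Art3 are highest in tumor replicate 4, at 609 and 581.

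Within tumor replicate 3 the members fell into smooth muscle-like and pericyte-like barcodes. The 37 members with a UMI of Acta2 or Tagln carried Myh11 at 3193 CPM, against 30.03 in the 55 members with neither. Tpm2 was 12.3-fold and Myl9 5.79-fold higher in the former, while Cnn1 and Sncg, which encodes γ-synuclein, were at least 15.3-fold and 36.5-fold higher against a floor of 3 UMIs. The split uses genes of the rule and was not tested.

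In the same split, 23 of 26 pericyte genes were lower and 3 were higher in the members with Acta2 or Tagln. Atp13a5 in the members with Acta2 or Tagln was 0.140 times its level in those with neither, Ggt1, the γ-glutamyltransferase gene, 0.0705 times and Slc6a20a 0.219 times. Notch3, which both mural types use, was at 677 and 811 CPM, and Itga7, Mcam and Tbx18 had ratios of 0.964 to 1.16. In tumor replicate 2 the same split of 34 and 72 members gave Myh11 6 and 2 UMIs, a Myl9 ratio of 1.19 and a Tpm2 ratio of 3.65. Dcn, a fibroblast gene, was 3.81-fold higher on the same side of that split, and Tagln in that tumor was at 567 CPM in the 21 members with 3 or more of 8 fibroblast markers and at 31.1 in the other 85. Of the 26 pericyte genes there, 16 were lower and 10 higher with Acta2 or Tagln. In tumor replicate 4 the split of 24 and 80 members gave ratios of 5.95 for Myh11 (8 and 4 UMIs), 1.71 for Myl9 and 2.36 for Tpm2. Fibroblast genes did not move together there. The ratio was 0.343 for Dcn (3 and 26 UMIs) and 0.930 for Col1a1 (10 and 32 UMIs). It was 3.34 for Col1a2 (37 and 33 UMIs), 2.38 for Apod (4 and 5 UMIs) and 1.33 for Col3a1 (57 and 128 UMIs).

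Contractile genes are classic targets of serum response factor, which binds the CArG box. The promoter of Myl9 is shown because Myl9 is one of the contractile genes that stood apart in tumor replicate 3 and its window holds a CArG box. The sequence is the 250 bases before the annotated start in RefSeq (GRCm38.p6, chr2:156775214-156775463, plus strand), with the CArG box in capitals, its first base at -161 from the start.
Myl9: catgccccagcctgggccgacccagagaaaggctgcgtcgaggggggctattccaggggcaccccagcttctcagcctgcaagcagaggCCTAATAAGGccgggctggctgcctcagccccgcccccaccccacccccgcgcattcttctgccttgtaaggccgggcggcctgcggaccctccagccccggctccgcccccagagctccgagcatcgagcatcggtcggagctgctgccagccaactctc
The box was searched in the strict form CCWWWWWWGG, where W is A or T, which reads the same on both strands. Forms that depart from it were not searched. It occurred in 482 of 32851 RefSeq promoter windows of this length (1.47%) and in those of 3 of 16 contractile genes with an entry, out of 22 looked up, namely Myl9, Myl6 and Srf. No box of this strict form lay in the windows of Acta2, Cnn1 or Lmod1, which leaves boxes of other forms open. No entry was matched for Myh11 or Tagln. A match describes the letters of the window and no binding was measured.

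Matrix genes differed between the members of tumors and controls. Col4a1, which encodes the type IV collagen chain of the vascular basement membrane, was at 1456, 4809.6, 1904, 3523 and 3640.4 CPM in tumor members and at 0, 174, 30.3 and 238 in control members. Its partner Col4a2 was at 431, 2239, 1002, 1926 and 1488, against 0, 139.5, 60.7 and 297. Mgp, matrix Gla protein, was at 1618, 4668, 1880.0, 2835 and 1089, against 0, 69.8, 121 and 238. None of the 3 genes overlapped between groups, and the share of all genes without such overlap was not counted. The value of 0 for each gene is that of control replicate 1, from 1 member. In the fit below, which leaves that mouse out, 10.3% of all genes tested were called higher in tumors.

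Within tumors, 16 of 37 listed matrix genes were higher in members than in endothelial barcodes in 5 of 5 tumors and 3, Ccn1, Ccn2 and the fibronectin receptor chain Itga5, were lower. The same count over all 5560 genes gave 969 higher and 547 lower. Col18a1, whose product releases endostatin, was at 135, 630.3, 188, 451 and 261 CPM in members and at most 39.8 in endothelial barcodes. Itga1, the collagen-binding integrin α1 chain, was at 647, 674, 1138, 735 and 615, against 155 to 296. Lama2, laminin α2, was at 135 to 259 in members and at 2.80 to 21.1 in endothelial barcodes.

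Other matrix genes were shared with endothelium or differed between tumors. Sparc, a collagen chaperone, was at 1344 to 2435 CPM in members and at 2205 to 4454 in endothelial barcodes. Postn, the periostin gene, was at 80.9, 495, 20.0, 818 and 337 in members and at most 6.54 in endothelial barcodes. Fn1, fibronectin, was at 135, 1302, 75.8, 1373 and 832, against 1050.3 to 1398. Postn and Fn1 were both low in tumor replicates 1 and 3 and high in the other 3.

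**Figure D4:**
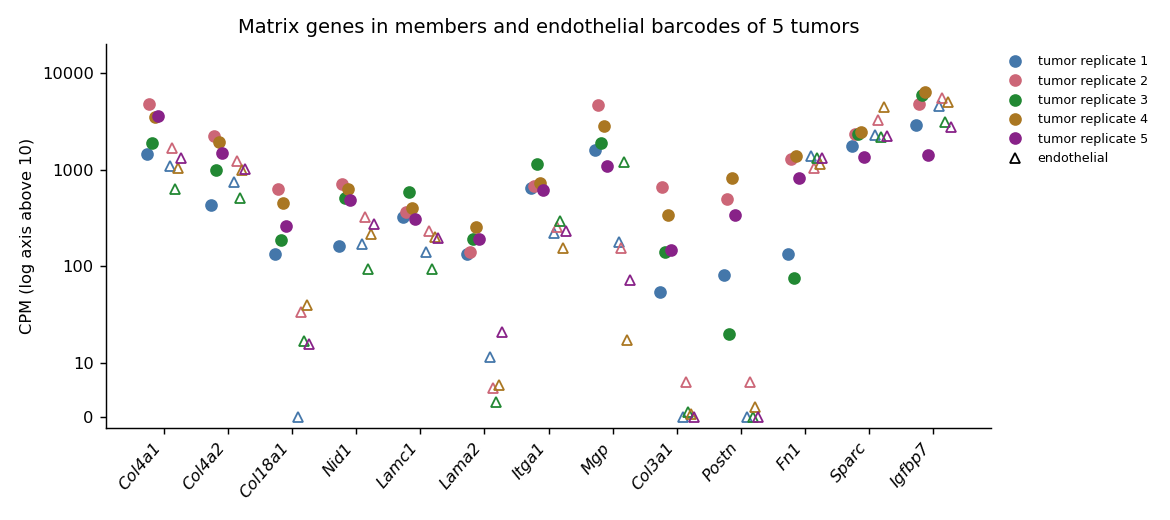
Matrix genes in summed members (filled circles) and endothelial barcodes (open triangles) of 5 tumors, in CPM (log axis above 10). Col18a1, Itga1 and Lama2 lie higher in members of every tumor, Sparc lies higher in the endothelial barcodes of 4 of 5 tumors, and Fn1 and Postn are lowest in members of tumor replicates 1 and 3.

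Chemokines and cytokines were present in tumor members at levels that differed between tumors. Il34, a ligand of the CSF1 receptor on microglia and macrophages, was at 269.7, 147, 311, 125.8 and 111 CPM in tumor members. It was at 0 to 8.78 in endothelial barcodes and 0.427 to 4.60 in microglia of the same tumors. Il34 was thus present in the members of every tumor, and in control members it had 2 UMIs.

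Ccl11, the eosinophil chemokine eotaxin, was at 162, 1791, 7.98, 1475 and 387 CPM in tumor members. It was at 0 to 7.02 in endothelial barcodes and 0 to 6.25 in microglia. A UMI of Ccl11 was found in 17.6%, 48.1%, 2.17%, 57.7% and 20.7% of members, and in 0% to 1.81% of microglia, with a median depth of 1213.5 to 4375.5 and 890.0 to 4377 UMIs. After thinning to 1000 UMIs per barcode, which left out 4 and 37 members of tumor replicates 1 and 3, it was 7.69%, 36.8%, 0%, 30.8% and 17.2%. Tumor replicate 3 was low by each of these measures.

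Ccl2, the monocyte chemoattractant, was at 0, 1139, 0, 835 and 305 CPM in members of tumor replicates 1 to 5 and at 86.4 to 167 in microglia, with at most 11.1 in endothelial barcodes. The share of members with a UMI of Ccl2 was 0%, 29.2%, 0%, 46.2% and 15.9%, against 2.93% to 13.8% of microglia. The 0 of 17 members allows a share with a UMI of up to 17.6% and the 0 of 92 members up to 3.26% (3 counts, covering counting error only). Both lie in the tumors whose members had the lowest median UMI number, so these limits do not bound the share of members that express Ccl2. In microglia of tumor replicates 1 and 3 Ccl2 was at 167 and 108 CPM, and a UMI was found in 5.67% and 2.93%, the lowest shares of the 5 tumors. Cxcl1, a neutrophil chemokine, was at 503 in tumor replicate 2 and at most 29.3 in the others, and Ccl19, a ligand of CCR7, was at 431 in tumor replicate 1, from 17 members, and at most 59.9 in the others.

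**Figure D5:**
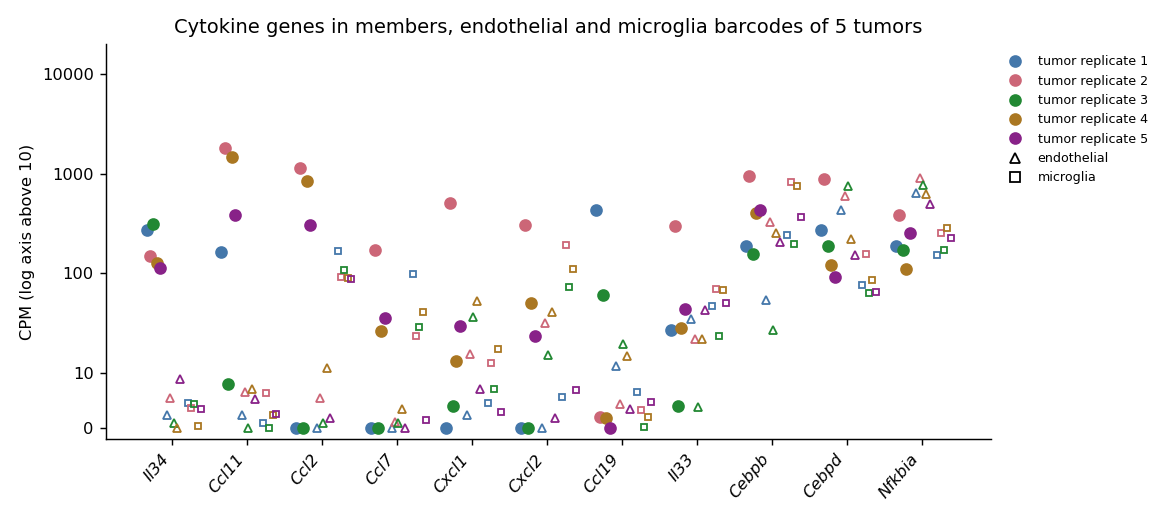
Cytokine genes in summed members, endothelial barcodes and microglia of 5 tumors, in CPM (log axis above 10), with 1 point per tumor. Il34 lies at 111 or above in the members of every tumor and under 10 in both other classes, and Ccl11 and Ccl2 in members are highest in tumor replicates 2 and 4.

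Cebpb, a transcription factor of the inflammatory response, was at 189, 946, 156, 398 and 431 CPM in members, higher than in the endothelial barcodes of each tumor (27.0 to 326). Nfkbia, the inhibitor induced by NF-κB, was at 109 to 386 in members, below the 497 to 900.0 of endothelial barcodes. Csf2, which encodes GM-CSF, had 0 UMIs in the members and endothelial barcodes of all 9 libraries.

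Fibroblast transcripts were most frequent in members of tumor replicate 2. Dcn, which encodes decorin, was at 53.9, 702, 15.97, 53.7 and 0 CPM in members of tumor replicates 1 to 5, and Lum, which encodes lumican, at 276 in tumor replicate 2 and 0 in the others. A UMI in 3 or more of 8 fibroblast markers was found in 0 of 17, 21 of 106, 2 of 92, 10 of 104 and 4 of 145 members, and in 1 of 24 control members. The 21 members of tumor replicate 2 had Aldh1a2, a retinaldehyde dehydrogenase gene, at 793 CPM, against 9.34 in the remaining 85, and Rgs5 at 1652 against 2947.

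The chemokines of tumor replicate 2 were not limited to the barcodes with fibroblast markers. Ccl11 was at 2279 CPM in those 21 members and at 1516 in the other 85, Ccl2 at 1762 and 787, and Cxcl1 at 622 and 436. Col4a1 was at 7135 and 3495.0. Il33, an alarmin gene, was at 688 and 77.8.

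Of 30 listed signalling genes, 7 were higher and 8 lower in members than in endothelial barcodes in 5 of 5 tumors, beside 969 and 547 of all 5560 genes counted in this way. Pdgfb, the ligand that recruits pericytes, was at 211 to 446 CPM in endothelial barcodes of all 9 libraries and at 0 to 144 in members, and the level of its receptor gene Pdgfrb in endothelial barcodes is partly set by the rule, which uses it. Angpt2, the vessel-destabilizing angiopoietin, was at 131 to 441 in tumor endothelial barcodes and 9.25 to 135 in tumor members. Heyl, a Notch target, was at 162, 61.6, 184, 115 and 29.3 in tumor members and at most 10.5 in tumor endothelial barcodes.

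Ptn and Mdk encode the heparin-binding growth factors pleiotrophin and midkine. Ptn was at 3856, 3535, 2909.8, 3721 and 1309 CPM in tumor members and at 372 to 672 in tumor endothelial barcodes. In controls it was at 767 to 2668 in members and 908 to 1528 in endothelial barcodes. Mdk was at 189, 461, 79.8, 544 and 451 in tumor members, and control members had no UMI of it.

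Tumor and control members were then compared gene by gene. UMI counts of members were summed per mouse and tested with edgeR's quasi-likelihood test with Benjamini-Hochberg adjustment at 0.05. Only control replicates 2, 3 and 4 had at least 4 members, so 23 control members stood against 464 of 5 tumors and the fit dropped control replicate 1. Since all 24 control members held 3 or more neuron markers and 1 of 24 held 3 or more of the 6 pericyte markers, mural cells and barcodes of mixed RNA cannot be told apart among them. Of 3334 genes tested, 342 (10.3%) were higher in tumors and 268 (8.04%) were lower, and 58 of the 342 had no UMI in the control members. Without control replicate 3 the calls fell to 61, without control replicate 2 to 165 and without control replicate 4 to 177, and 43 of the 610 were called with each mouse left out in turn, while all 610 kept their direction. With limma voom in place of edgeR, 85 genes were higher and 288 lower.

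Among the genes with the smallest p, 4 of the 10 that rose in tumor members belong to the matrix list. That list holds 26 of the 3334 genes tested. Igfbp7, an angiomodulin gene, was 5.59 higher on the log2 scale (SE 0.82, adjusted p = 0.00492 by edgeR's quasi-likelihood test), at 2913, 4814, 5991, 6386 and 1438 CPM in tumors and 445, 34.9, 30.3 and 297 in controls. It had 7 UMIs in the control members of the fit, and its difference was 7.13 without control replicate 4 and 5.06 without control replicate 3. Col4a1 rose by 4.67 (SE 0.68, adjusted p = 0.00492), Mgp by 4.34 (SE 0.67, adjusted p = 0.00527) and Sparc by 2.88 (SE 0.44, adjusted p = 0.00527). Vim, the vimentin gene, Rps2, a ribosomal protein gene, H3f3a, a histone gene, Plat, tissue plasminogen activator, and Ost4, an oligosaccharyltransferase subunit gene, followed with log2 differences of 2.97 to 6.12. Vim and Ost4 each had 1 control UMI, in control replicate 3, and without that mouse their fitted differences became 10.68 and 9.08. With limma voom the calls of Vim and Plat were lost (adjusted p = 0.0605 and 0.0687). Cnn3, an actin-binding calponin gene, had no control UMI and was at least 5.66-fold higher against a floor of 3 UMIs over the control members.

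The genes that fell included genes of neurons. Ppp3ca, the calcineurin catalytic subunit, fell by 3.20 on the log2 scale (SE 0.41, adjusted p = 0.00340 by edgeR's quasi-likelihood test). Meg3, one of the 6 neuron markers, was at 889, 4918, 7795 and 9744 CPM in control members and 485 to 1389.8 in tumors. Nme7, Chgb, Olfm1, Nav3, Pex5l and Cttnbp2 were also among the 10 genes with the smallest p, with log2 differences of -3.03 to -4.29. The neuron markers moved with the groups outside the members as well, at 3197 to 6384 CPM in endothelial barcodes of controls and 97.1 to 1584 in those of tumors.

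The gene lists were counted against the background of 10.3% higher and 8.04% lower. A gene was tested only if enough UMIs were present in the summed members, so listed genes seen in tumors only are among those tested, and the median log2 difference of all tested genes was 0.33. Of 37 matrix genes, 26 were tested, 17 rose and 0 fell, with a median log2 difference of 3.61, and 5 of the 26 had no control UMI. The summed level of this list was also higher in every tumor than in any control outside the members, at 11442 to 17450 CPM against 2919 to 4137 in endothelial barcodes and at 1797 to 3511 against 575 to 675 in all other kept barcodes. Of 26 pericyte genes outside the rule, 20 were tested, 10 rose and 0 fell (median 2.81). Of 24 control members, 19 had exactly 3 mural genes and 1 held 3 or more of the 6 pericyte markers. This count of pericyte genes is therefore partly fixed by the rule and by the filter on UMIs. The summed level of the 26 pericyte genes was also higher without overlap in the other kept barcodes of tumors (210 to 437 CPM against 169 to 184 in controls), and overlapped in endothelial barcodes. The genes that rose included Ndufa4l2 (log2 difference 4.51), S1pr3, a sphingosine 1-phosphate receptor gene (3.605), Gper1, the G-protein-coupled estrogen receptor gene (4.14), and Mcam, the CD146 gene (3.79). These 4 genes had 3, 2, 1 and 2 UMIs in the control members of the fit, at or under the floor of 3, so their fitted differences are no bounds.

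The lists of contraction, tone and signalling were counted in the same way. Of 20 contractile genes 9 were tested and 2 rose, Cald1, which encodes caldesmon (log2 difference 2.32), and Myl6, a myosin light chain gene (2.30). Of 28 genes of vascular tone 11 were tested and Ednra alone rose (2.50). Of 30 signalling genes 14 were tested and 4 rose, Id3, a target of BMP signalling (3.04), Hes1, a Notch target (3.20), Ptn (1.64) and Mdk, which had no control UMI. No tested gene of these lists fell. In the other kept barcodes the summed contractile list (849 to 1547 CPM against 788 to 829.1) and signalling list (1694 to 3713 against 1003 to 1024) were higher in tumors than in controls, and the tone list was lower (1062 to 1749 against 2329 to 2431), all without overlap.

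Of 26 cytokine and NF-κB genes 7 were tested and 5 rose. In control members 20 of the 26 were at 0, and 3 of the 7 tested had no control UMI, so this count is partly fixed by the filter on UMIs. Cebpb and Nfkbia each rose by 4.21 on the log2 scale and Il34 by 2.94, while Cebpd and Ccl11 had no control UMI. The summed level of the 26 genes also differed without overlap in endothelial barcodes (295 to 566 CPM in controls and 1289 to 2885 in tumors) and in all other kept barcodes (156 to 168 and 684 to 2467). Of 22 genes of the interferon response 12 were tested and 5 rose, namely Ifitm3 (4.45), Ifitm1 (4.05), Ifitm2 (3.65), H2-D1 (2.11) and B2m (2.02). The summed interferon list was at 334 to 519 CPM in the other kept barcodes of controls and 1329 to 4687 in those of tumors, and overlapped in endothelial barcodes, at 2350 to 4034 and 2564 to 10147. A UMI in 3 or more of 8 microglia and macrophage markers was found in 89 of 464 tumor members and 2 of 24 control members, with summed levels of 431 to 2920 and 0 to 2372 CPM, and the part of such RNA in both lists was not tested. Within tumors 11 of the 22 interferon genes were lower in members than in endothelial barcodes in 5 of 5 tumors and 1, Ifitm1, was higher. Over all 5560 genes counted so, 547 were lower and 969 higher.

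Further lists covered stress, metabolism and the cell cycle. Of 18 immediate early and heat shock genes 10 were tested and 4 rose, Jund (1.32), Hspb1 (2.97), Fos and Klf2, the last 2 with no UMI in the controls of the fit. Its summed level was at 1417 to 1736 CPM in the other kept barcodes of controls and 1806 to 5220 in those of tumors, without overlap, and overlapped in endothelial barcodes. Of 18 hypoxia and glycolysis genes 11 were tested and Ldha, lactate dehydrogenase, rose (2.28), with a list median of 0.35. Of 16 cell cycle genes 9 were tested and 2 rose, Ccnd1, which encodes cyclin D1 (3.37), and Cdkn1a, the p21 gene, with no control UMI. Since 10 of the 16 were at 0 in control members and 5 of the 9 tested had no control UMI, this count is largely fixed by the filter. In the other kept barcodes the summed cell cycle list was at 946 to 3326 CPM in tumors and 789.6 to 881 in controls. Of 12 fibroblast markers 4 were tested and Col3a1, with no control UMI, rose. No tested gene of these lists fell. Without control replicate 3, 32 of the 53 genes named by rule in this comparison lost their call, and of the genes given for the lists only Col4a1, Igfbp7, Mgp, Sparc and Ifitm3 kept it. With 1 mouse left out, the fold change of 23 of the 53 genes moved by over 1.5-fold. Their log2 differences included Gper1 (8.72), Mcam (9.34), Hes1 (7.79), B2m (3.18) and Ldha (4.16) without control replicate 2. Ifitm1 was at 9.57 without control replicate 3 and Nfkbia at 8.83 without control replicate 4.

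Since neuronal and other RNA differed between whole libraries, the tumor-control difference in members was tested against that in all other kept barcodes of the same mice. Of 15016 genes tested, 70 (0.466%) had a more positive tumor-minus-control log2 difference in members and 26 (0.173%) a more negative one. The sign does not tell in which class of barcodes the change was larger. Of the 70, 19 had no control UMI in members. The 96 calls became 49, 36, 60 and 152 without control replicate 3, control replicate 4, tumor replicate 2 and tumor replicate 5. DESeq2 gave 6 more positive and 40 more negative, of which 10 were among the 96. Without control replicate 2 there were 88 more positive and 1 more negative, 51 of them among the 96, and 91 of the 96 kept their direction. Rgs4, a regulator of G-protein signalling, led with a log2 difference between the changes of 3.71 (SE 0.50, adjusted p = 1.29e-09 by edgeR's quasi-likelihood test). Gucy1b1 (4.18), P2ry14 (4.47), Sept11, a septin gene (3.39), and Mgp (2.91) followed. The SE and p of this test rest on a spread pooled over genes, so they do not measure the spread of a single gene between mice. Rgs4 in members overlapped between groups, at 378, 376, 1158, 172 and 141 CPM in tumors and 1334, 279, 152 and 119 in controls, while in the other barcodes it was at 2.03 to 49.6 in tumors and 104 to 135 in controls. Levels in members also overlapped for Gucy1b1, at 73.2 to 487 CPM in tumors and 60.7 to 445 in controls. The same held for P2ry14 (59.6 to 515 and 0 to 445) and Sept11 (152 to 629 and 91.0 to 889). The genes with a more negative difference in members were led by Ptgds, Ttr, Cx3cr1, Rbpms and Cldn11, at -2.34 to -4.18. Ttr in members was at 445 to 1517 CPM in controls and 0 to 216 in tumors. Ttr and Ptgds are abundant transcripts of choroid plexus and meninges.

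Against endothelial barcodes of the same mice, 10 of 7762 genes (0.129%) had a different tumor-control change in members, and all 10 were more positive in members. Ptn led with a log2 difference of 2.85 (SE 0.34, adjusted p = 0.000178 by edgeR's quasi-likelihood test). Itga1 (3.06, adjusted p = 0.00444), Ppp1r14a, an inhibitor of myosin phosphatase (5.50, adjusted p = 0.0199), Vim (4.63, adjusted p = 0.0328) and H3f3a (2.21, adjusted p = 0.0331) followed. No gene was called without control replicate 2 or without control replicate 4, and 1 without control replicate 3, whereas 17, 43 and 35 were called without tumor replicates 2, 3 and 5. Itga1 was lower in members than in endothelial barcodes of controls, at 0 to 238 against 269 to 511 CPM, and higher in those of all 5 tumors.

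Proliferation markers were found in a minority of tumor members. A UMI in 3 or more of 7 cell cycle markers was present in 1 of 17, 11 of 106, 1 of 92, 20 of 104 and 12 of 145 members, or 5.88%, 10.4%, 1.09%, 19.2% and 8.28%. The same tumors gave 0% to 9.46% of endothelial barcodes and 0.488% to 9.04% of microglia. Of the 24 control members, pooled over 4 mice, 0 did so. This allows a share of up to 12.5% (3 counts, covering counting error only and no spread between mice). The shares were not thinned to equal depth or tested. Tumor replicate 4, with the highest share, also had the deepest members, with a median of 4375.5 UMIs. Scrublet scores marked 17 of its 104 members, and 35.6% of its members held a UMI in all 3 tumor-cell marker genes described below. The part of tumor-cell RNA in the shares with cell cycle markers was not tested.

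Transcripts of the tumor cells were measured in the members too. The fusion sequence gave 6 UMIs in 5 of the 464 tumor members and none in control members, and the luciferase sequence gave 98 UMIs in 58 tumor members. The 3 tumor-cell marker genes summed to 270 to 2974 CPM in tumor members and to 475 to 7038 in all other kept barcodes of the same tumors. A UMI in all 3 was found in 80 of the 464 tumor members. The shares were 0%, 23.6%, 2.17%, 35.6% and 11.0% of members in tumor replicates 1 to 5. Of endothelial barcodes they were 0%, 17.1%, 1.52%, 30.7% and 6.36%. The reporter sequence of the control allele gave 4 UMIs in 3 of 24 control members and none in tumor members.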

How the data were processed

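Single-cell 10x 5′ gene expression of 5 tumors and 4 control brains was used. Per the labels, the authors ran Cell Ranger (version 7 in the submitters' processing notes, 6.1.2 in the matrix headers, with Scanpy 1.8.2 and build mm10), and deposited raw UMI counts, whole numbers for each gene in each barcode. In control replicate 4 the barcode list is shorter than the matrix (80865 for 80887 columns), so barcodes were read by column. Its gene list also falls short of the matrix rows (32287 for 32289), and genes were read in the order that the mouse genes have in all 9 lists. No deposited cell annotation was used here.

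Per library the 10000 barcodes with most UMIs were kept if they had 200 to 6000 genes and under 15% mitochondrial UMIs. Members were found as described in the report. Microglia are barcodes with at least 3 microglia and macrophage markers that were not vessel cells, so macrophages were not separated from them. Of these barcodes, 0%, 25.8%, 0.731%, 48.2% and 11.6% in tumor replicates 1 to 5 held a UMI in all 3 tumor-cell marker genes. Barcodes of low UMI number are the 3000 with the fewest UMIs of each library, which in tumor replicate 3 include kept ones. The members, markers and gene lists were chosen with earlier results of these data known. Levels are CPM over summed barcodes of a class and mouse. Sums per mouse went into edgeR 4.0.16 in R 4.3.3 (quasi-likelihood test, TMM, filtering of low counts, Benjamini-Hochberg adjustment, threshold 0.05). The interactions added a term per mouse. For shares, every split of the mice was enumerated in an exact permutation test, two-sided (SciPy 1.17.1, Python 3.11.15). The fits were tested on simulated data. Libraries of a group all differed beyond sampling noise (chi-square per degree of freedom 4.43 or more).

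The plan required 20 members per mouse, or 10, which only 1 control reached. A minimum of 4 members (17 endothelial barcodes for the endothelial interaction) was set after seeing the data. For the same reason a 10% mitochondrial limit, at least 4 mural genes, members without markers of other cells, and minima of 10 or 50 members gave no fit. Subtraction of free RNA was void, since the estimate reached 52.2% to 160% of members' UMIs in controls and 21.7% to 106% in tumors. Named genes are the 10 with the smallest p in each direction (5 for the interactions) that kept their direction with each mouse left out, the genes of the rule, and up to 6 called genes of each list. Some genes that these rules name are not reported here. Genes shown for differences among tumors were chosen after their values were seen. Alternatives were DESeq2 1.42.0, limma voom (limma 3.58.1), RLE size factors, no filter, other limits of the rule, thinning, Scrublet (Scanpy 1.11.5), the replicate number as a block and each mouse left out. Promoter windows came from RefSeq (GRCm38.p6).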

Additional observations from a re-analysis of the deposited data

Results flagged for a closer look

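Outside the genes of the rule, 9 of 66 groups of values examined had a mouse far from the others by Dixon's ratio. Its limit marks about 1 in 20 groups of normally distributed values. The values were not transformed and the groups include genes named from these same data, so the count cannot be set against that rate. The highest value lay in tumor replicate 3 in 8 of the 9 groups. These were Myh11 (1932 CPM), Cnn1 (275), Mylk (1082), Myl9 (4427), Tpm2 (1956), Lmod1 (371), Gper1 (387) and Itga1 (1138). Cebpd was highest in tumor replicate 2 (873). Most of these genes are contractile and are not independent. Among the genes of the rule, given as a description since they chose the members, Acta2 (6426) and Tagln (8342) were highest in tumor replicate 3 and Abcc9 (324) was lowest in tumor replicate 1.

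The tumor-control change in members differed from that in all other barcodes of the same mice, by a test of the difference itself, for Rgs4 (log2 difference 3.71), Gucy1b1 (4.18), P2ry14 (4.47), Sept11 (3.39), Mgp (2.91), Ptgds (-2.34), Ttr (-4.14), Cx3cr1 (-3.05), Rbpms (-3.47) and Cldn11 (-4.18). The adjusted p of edgeR's quasi-likelihood test for these ran from 1.29e-09 to 0.00111. It rests on a spread pooled over genes and does not measure the spread of each gene between mice. Levels of Rgs4, Gucy1b1, P2ry14, Sept11 and Rbpms in members themselves overlapped between tumors and controls in the mice of the fit. Those of Ptgds, Cx3cr1 and Cldn11 overlapped only through control replicate 1, which the fit left out. Against endothelial barcodes it differed for Ptn (2.85), Itga1 (3.06), Ppp1r14a (5.50), Vim (4.63) and H3f3a (2.21). In control members Vim had 1 UMI and Ppp1r14a 5 over the 3 mice of the fit, so these differences rest on few molecules.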

How the results depend on the processing

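The difference in the share of members kept its direction and passed under all 19 alternatives (0.806 to 2.03 percentage points; 1.03 to 1.32 with each mouse left out), of which the denominator of barcodes with fewer than 3 neuron markers sets tumors against 0 of 160 control barcodes and says nothing about stability. None of the 19 gave the libraries an equal lowest UMI number among the barcodes considered. Members per endothelial barcode passed under no alternative, from 0.332 to 1.56 with each mouse left out, and reversed to -1.38 with 2 mural genes. The count of 610 called genes (342 higher, 268 lower) was 657 with DESeq2, 373 with limma voom (85 higher, 288 lower), 1442 without a filter (1092 higher, 350 lower) and 61 to 731 with each mouse left out. The 96 interaction calls against other barcodes became 46 with DESeq2 (6 more positive, 40 more negative in members) and 214 without a filter. With each mouse left out they became 36 to 152, without control replicate 4 and tumor replicate 5 respectively. The 10 against endothelial barcodes became 0 to 43, without control replicates 2 or 4 and tumor replicate 3. The causes were not tested. With the replicate number as a block 762 genes were called, and 752 in the same 6 mice without it; same-numbered mice did not deviate together (r of -0.0113, -0.0440 and -0.0720, none matching its own number best), so the numbers only name samples. Of 954 alternative values for 53 named genes, 814 kept their call, 140 lost it and 0 reversed. Limits are the 23 control members of the fit, their 78465 UMIs, and neuronal RNA in all of them. The fits named as impossible above were not run.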

Other observations

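Further genes separated single tumors and were chosen after their values were seen. Members of tumor replicate 2 carried Igfbp5, an IGF-binding protein gene, at 2744 CPM, Ier3, an immediate early gene, at 940.5, Il11, an IL-6 family cytokine gene, at 203 and Hilpda, a hypoxia-inducible lipid droplet gene, at 348. In tumor replicate 1 the angiotensinogen gene Agt was at 269.7, from 17 members. Within tumor replicate 3, Ogn, which encodes the matrix proteoglycan osteoglycin, was at 558 CPM in the 37 members with Acta2 or Tagln and at 110.1 in the 55 with neither. These values have no test.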
